A study of Mus musculus with 16 samples.

Results

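The BCL-2 family decides whether a cell keeps its mitochondria intact, and 10 of its genes were followed through 16 RNA-seq libraries of mouse macrophages. They were chosen by symbol among the 43430 genes of the deposited count table, and all 10 had enough counts to be tested. The set holds 5 genes of BH3-only proteins (Bmf, Bcl2l11, Bbc3, Bid and Pmaip1), 3 of anti-apoptotic proteins (Mcl1, Bcl2l1 and Bcl2) and 2 of effectors (Bax and Bak1). The study asked, by its title, how serine metabolism bears on IL-1β production by macrophages. Bone marrow cells of C57BL/6J mice were grown into macrophages with macrophage colony-stimulating factor at 20 ng/mL, harvested on day 6 and moved into MEM for the experiment. Lipopolysaccharide (LPS), a bacterial membrane component sensed by Toll-like receptor 4, was added to the LPS groups at 100 ng/mL, with RNA extraction 4 h after it.

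There were 4 groups of 4 libraries each, all of the same strain and with no genetic change named. They were cells in medium without serine and with LPS, cells in complete medium with LPS, untreated cells without serine, and untreated cells in complete medium. Library totals ranged from 2871477 to 10043362 counts. The lowest was replicate 4 of the untreated cells without serine, in which the 20 most abundant genes took 23.1% of the counts, against 12.3% to 17.3% in the other 15 libraries. In this library the longest 2751 genes tested had a median log2 CPM of -0.61 relative to the other 3 of its group, and the shortest 2751 one of 0.43. In the other 15 libraries these medians lay between -0.04 and 0.27 for the long genes and between -0.17 and 0.06 for the short ones. The values 0.27 and -0.17 came from replicates 1 and 2 of the same group, whose comparison included this library. In the other groups the medians lay between -0.037 and 0.081 for the long genes and between -0.047 and 0.058 for the short ones. In each group replicate 1 held no Xist and 1214 to 2420 Y-linked counts. The remaining 12 libraries held 351 to 1477 counts for Xist and 1 to 16 for the Y-linked genes. All 12 macrophage markers averaged at least 1 CPM in every group, and none of 7 markers of T and NK cells did. CPM are counts scaled to the library total after TMM adjustment. Summed neutrophil markers ranged from 7.86 to 70.6 CPM in the LPS groups and from 8.09 to 104 CPM in the untreated ones, with 3 or 4 of 8 at 1 CPM or more, and Ly6g without a count in 3 groups. Stromal markers summed to 0.974 to 23.7 CPM with LPS and 0.696 to 19.1 CPM without it, with 2 or 3 of 6 at 1 CPM or more. Of 7 markers of B and plasma cells at most 1 reached 1 CPM. Summed dendritic cell markers reached 13.4 to 24.1 CPM with LPS and 3.34 to 6.97 CPM without it. Of the 7 genes, 4 averaged at least 1 CPM in each LPS group and 1 in each untreated group. Mast cell and basophil markers summed to 16.6 to 28.3 CPM with LPS and 0.675 to 5.66 CPM without it. Of these 6 genes, 2 averaged at least 1 CPM in LPS-treated cells without serine and 1 in every other group. In these lists Fcer1a had no count in any group, and Cd209a had none in 3 of the 4 groups. The part of other cells in the results below was not tested.

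In a healthy cell, anti-apoptotic proteins hold the effectors BAX and BAK in check at the outer mitochondrial membrane. BH3-only proteins are sentinels of stress: when they accumulate they occupy the anti-apoptotic proteins or act on the effectors directly, the membrane is permeabilised, and cytochrome c is released to switch on caspases. Many BH3-only genes are controlled at the level of transcription, and macrophages exposed to bacterial products are known to raise survival genes through NF-κB. The measurements here are of RNA only. In bulk RNA, a change in the make-up of the culture and a change of RNA per cell cannot be told apart.

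The upstream sequences of 4 genes are shown. Bmf fell most with LPS, and Bid rose most. Bbc3 had the largest serine difference among the genes higher in every pair of LPS-treated libraries. Bcl2l11 is shown only because it held a FOXO motif. The sequences are RefSeq promoter windows of the GRCm38.p6 assembly, of the 250 bases before a gene's start site, without bases that the annotation places in exons. They run 5′ to 3′ on the strand of the gene, and capitals mark a motif match.
Bmf promoter, chr2:118549688-118549936, minus strand: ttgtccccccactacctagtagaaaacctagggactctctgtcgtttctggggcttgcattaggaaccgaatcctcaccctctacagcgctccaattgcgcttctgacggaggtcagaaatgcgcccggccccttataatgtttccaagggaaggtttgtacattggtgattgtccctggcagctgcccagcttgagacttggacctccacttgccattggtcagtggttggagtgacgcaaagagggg
Bid promoter, chr6:120916854-120917074, minus strand: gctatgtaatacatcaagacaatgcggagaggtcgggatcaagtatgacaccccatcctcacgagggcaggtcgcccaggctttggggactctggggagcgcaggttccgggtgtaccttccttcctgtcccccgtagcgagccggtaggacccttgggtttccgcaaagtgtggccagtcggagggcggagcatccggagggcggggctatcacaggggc
Bbc3 promoter, chr7:16309333-16309582, plus strand: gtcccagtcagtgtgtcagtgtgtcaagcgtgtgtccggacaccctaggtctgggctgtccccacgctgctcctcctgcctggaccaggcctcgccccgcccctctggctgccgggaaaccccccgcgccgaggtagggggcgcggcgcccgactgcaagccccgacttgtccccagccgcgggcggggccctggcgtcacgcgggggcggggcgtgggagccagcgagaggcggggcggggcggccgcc
Bcl2l11 promoter, chr2:128125788-128126037, plus strand: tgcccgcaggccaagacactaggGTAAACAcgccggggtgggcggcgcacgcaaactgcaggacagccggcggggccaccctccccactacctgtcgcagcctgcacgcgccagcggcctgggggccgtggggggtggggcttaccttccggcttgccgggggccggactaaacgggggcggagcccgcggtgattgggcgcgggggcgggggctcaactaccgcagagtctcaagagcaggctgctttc

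For each of 8 members, only the window nearest to the 5′ end of the gene was searched, on both strands, for 7 motifs. There were 2 matches, which did not overlap. Their number was not tested against the shares of all windows given below. Bcl2l11, which encodes BIM, held the FOXO motif (the letters GTAAACA) 227 bases before its start site (position -227), and this motif occurs in 3.17% of 32851 mouse promoter windows. Bax held the E-box (the letters CACGTG) at position -9, and this occurs in 6.02% of the windows. The windows of Bmf, Bid and Bbc3 held none of the 7. The AP-1 motif (the letters TGACTCA) occurs in 4.46% of all windows, and the motif of ATF4 with CHOP (the letters TGATGNAA) in 3.45%. The TATA box, searched as TATAAA, occurs in 12.4%. The kappa-B motif, searched as GGGA and 2 bases of any kind before TTCC, occurs in 1.21%, and the interferon response motif, searched as GAAA repeated after 2 bases of any kind, in 2.98%.

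The levels of different genes were set side by side as CPM per kilobase of the gene length given by the authors. These lengths run from 869 bases for Bax to 17013 for Bcl2l11, and the ranks and shares between genes depend on them. Whether they match the transcripts present in these cells was not tested. Mcl1, which encodes a short-lived anti-apoptotic protein, was the most abundant of the 10 in every group. It averaged 482 ± 44.3 CPM per kilobase in LPS-treated cells without serine and 395 ± 40.1 in LPS-treated cells with serine, against 267 ± 31.9 in untreated cells without serine and 228 ± 13.7 in untreated cells with serine (SD, n = 4 each). Mcl1 made up 98.9% of the summed per-length level of the 3 anti-apoptotic genes in both LPS groups and 98.7% in both untreated groups. This share leaves out the anti-apoptotic genes outside the 10. Of these, Bcl2a1b averaged 353 CPM per kilobase in LPS-treated cells without serine and 381 with serine. Bcl2a1d averaged 184 and 199, and Bcl2a1a 61.3 and 66.1, in the same order. In untreated cells Bcl2a1b averaged 37.6 without serine and 22.1 with serine. Bax came next after Mcl1 in all 4 groups, and Bak1 next after Bax. Bcl2, the founding member of the family, was last in both untreated groups at 0.316 ± 0.178 CPM per kilobase without serine and 0.272 ± 0.0540 with serine. With LPS the last place went to Bmf, at 0.111 ± 0.0430 CPM per kilobase without serine and 0.0762 ± 0.0253 with serine, which overlapped Bcl2.

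**Figure D1:**
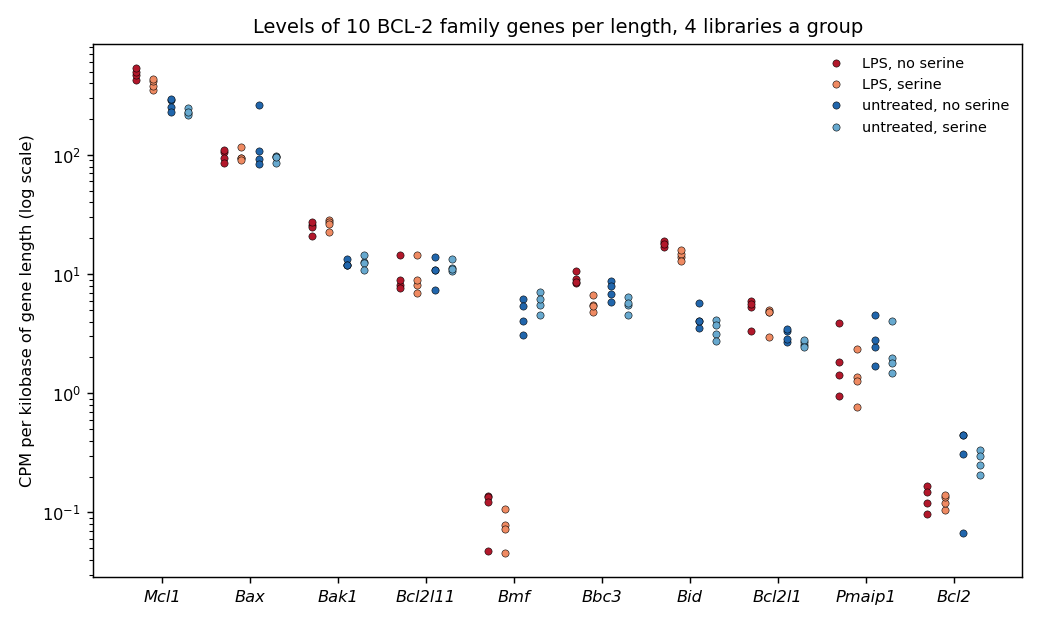
Levels of the 10 genes as CPM per kilobase of gene length on a log axis, with 1 point for each of the 4 libraries of a group. Mcl1 lies above the other genes in each group apart from 1 Bax point in untreated cells without serine, and Bmf drops to the level of Bcl2 in the LPS groups.

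The order in the middle of the scale changed with LPS. Bid ranked 4 of 10 in both LPS groups and 7 of 10 in both untreated groups. In untreated cells with serine, Bmf and Bbc3 overlapped, as did Bid and Bcl2l1, Bcl2l1 and Pmaip1, and Bak1 and Bcl2l11. In LPS-treated cells with serine the overlapping neighbours were Bid and Bcl2l11, Bbc3 and Bcl2l1, and Bcl2 and Bmf. Of the summed per-length level of the 5 BH3-only genes, Bid made up 46.7% ± 6.70 in LPS-treated cells without serine and 46.8% ± 7.39 in LPS-treated cells with serine, against 14.6% ± 1.65 and 12% ± 1.74 in the untreated groups without and with serine (SD, n = 4 each). Bmf made up 0.283% ± 0.109 and 0.243% ± 0.0598 with LPS, against 15.6% ± 3.02 and 20.3% ± 2.21 in the untreated groups, in the same order. Bcl2l11 had the largest share of this sum in both untreated groups, at 35.7% without serine and 40.4% with serine.

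LPS changed 6 of the 10 genes in each serine condition. Bid, Bak1, Mcl1 and Bcl2l1 rose, and Bmf and Bcl2 fell. Bbc3, Bax, Bcl2l11 and Pmaip1 did not pass the test in either condition. With serine, 27.6% of the 11004 genes tested rose and 28.2% fell, so that 4 of 10 higher and 2 of 10 lower stand beside large shares for genes at large. Without serine the same counts stand beside 27.1% of genes higher and 29.7% lower. With libraries scaled by their totals, 3 of the 10 were higher and 5 lower without serine, beside 15.3% and 59.7% of all genes, and 2 higher and 6 lower with serine, beside 15.1% and 58.2%. The median log2 fold change of the 10 was 0.05 with serine and 0.09 without it, against -0.03 and -0.12 over all genes tested. These calls come from edgeR's quasi-likelihood test at a Benjamini-Hochberg adjusted p of 0.05. Nothing in the labels states that replicates came from different animals or cultures. By Xist and the Y-linked genes, replicate 1 came from a different animal than the others. How replicates 2 to 4 relate is not stated, so the spread among them may be technical.

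**Figure D2:**
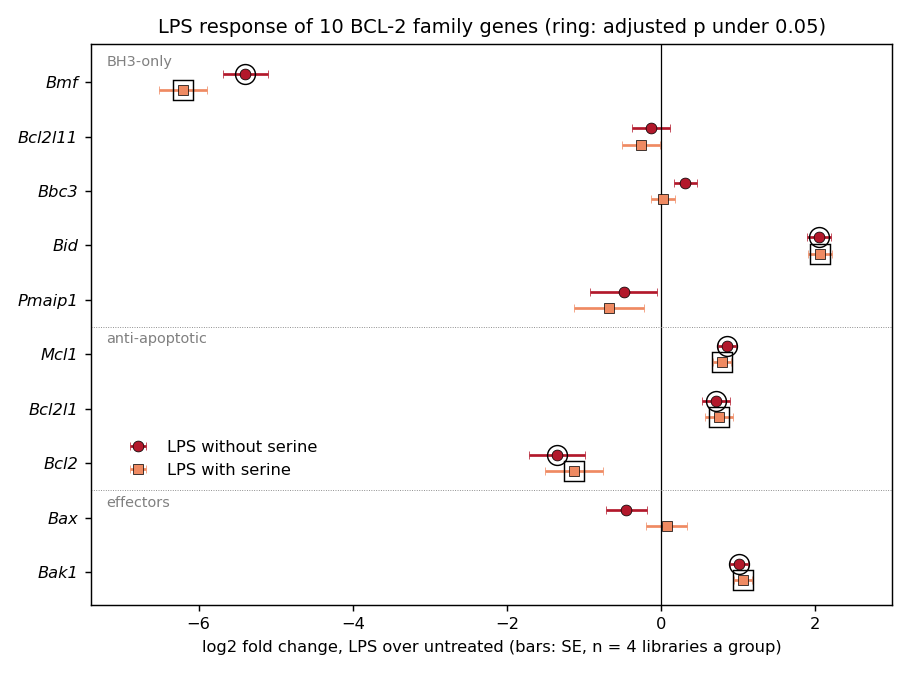
Log2 fold change of LPS over untreated for the 10 genes, without serine (circles) and with serine (squares), with bars for the standard error and a ring where the edgeR adjusted p is under 0.05. Bmf lies at -5.39 and -6.21, Bid near 2.05 in both conditions, and Bbc3, Bcl2l11, Pmaip1 and Bax have no ring.

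Bmf encodes a BH3-only protein that is held on the actin cytoskeleton through a dynein light chain. Its gene lies on the minus strand at chr2:118528757-118549687 (mm10). Bmf was at 1.52, 0.520, 1.5 and 1.36 CPM in replicates 1 to 4 of LPS-treated cells without serine, against 69.0, 44.7, 59.2 and 34.4 CPM in untreated cells without serine. With serine it was at 1.19, 0.863, 0.508 and 0.807 CPM in LPS-treated cells, against 78.0, 50.3, 60.7 and 68.5 CPM in untreated cells. Every LPS library lay below every untreated library. The level after LPS rests on few reads, 28 counts in all without serine and 20 with serine, against 1882 and 2238 counts in the untreated groups. Bmf fell by 5.39 on the log2 scale without serine (SE 0.30, edgeR adjusted p = 2.09e-10) and by 6.21 with serine (SE 0.31, edgeR adjusted p = 6.03e-11). The fall was -5.39 and -6.21 under TMM scaling and -5.98 and -6.82 when libraries were scaled by their totals.

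Bid encodes the BH3-only protein that caspase-8 cleaves, which links death receptors to mitochondria. The gene lies on the minus strand at chr6:120891930-120916853. Bid was at 105, 113, 116 and 111 CPM in LPS-treated cells without serine, against 35.4, 24.9, 21.7 and 25.0 CPM in untreated cells without serine. In complete medium it was at 85.0, 90.7, 98.6 and 79.2 CPM in LPS-treated cells, against 25.6, 22.9, 19.4 and 16.8 CPM in untreated cells. The LPS and untreated libraries did not overlap in either condition. The log2 fold change was 2.05 without serine (SE 0.16, edgeR adjusted p = 9.74e-09) and 2.06 with serine (SE 0.16, edgeR adjusted p = 8.37e-09). Bid shares exon sequence with Bcl2l13 on the opposite strand, and the library kit does not mark strand. Bcl2l13 averaged 35.6 and 37.1 CPM with LPS and 29.2 and 31.5 CPM in untreated cells, each without and with serine.

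Bcl2l11 encodes BIM, a BH3-only protein that binds all anti-apoptotic members. It was at 248, 138, 131 and 151 CPM in LPS-treated cells without serine, against 237, 184, 184 and 125 CPM in untreated cells without serine. Cells with serine had 245, 137, 118 and 153 CPM in LPS-treated cells, against 228, 189.9, 179.8 and 186 CPM in untreated cells. Replicate 1 was the highest of its group each time, and with serine the other 3 LPS libraries lay below all 4 untreated ones. The log2 fold change was -0.13 without serine (SE 0.24) and -0.26 with serine (SE 0.24), with edgeR adjusted p of 0.658 and 0.385. When every replicate 1 was left out, Bcl2l11 passed with serine at -0.48 (edgeR adjusted p = 0.0264). With the block and without replicate 4 of untreated cells lacking serine, it passed in both conditions, at -0.28 without serine (edgeR adjusted p = 0.0466) and -0.31 with serine (edgeR adjusted p = 0.0191). With libraries scaled by their totals it passed at -0.71 (edgeR adjusted p = 0.0251) and -0.88 (edgeR adjusted p = 0.00824).

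Bbc3 encodes PUMA, a BH3-only protein best known as a target of p53. It was at 33.8, 28.8, 26.5 and 27.1 CPM in LPS-treated cells without serine, against 27.8, 25.1, 18.5 and 21.6 CPM in untreated cells without serine. With serine it was at 21.4, 15.4, 17.4 and 17.3 CPM in LPS-treated cells, against 20.4, 14.5, 17.5 and 18.2 CPM in untreated cells. Without serine, Bbc3 was higher with LPS in 4 of 4 same-numbered pairs, though the groups overlapped. The log2 fold change there was 0.31 (SE 0.15, edgeR adjusted p = 0.0901). A block for the replicate number gave 0.32 (SE 0.12, edgeR adjusted p = 0.0291). It also passed without replicate 1 of the untreated group (0.42, edgeR adjusted p = 0.0377). With serine it was 0.02 (SE 0.16), higher in 2 of 4 pairs. When libraries were scaled by their totals it became -0.59 and passed (edgeR adjusted p = 0.00565).

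Pmaip1 encodes NOXA, a BH3-only protein that acts on MCL1. It was at 10.4, 4.85, 3.74 and 2.53 CPM in LPS-treated cells without serine, against 12, 6.43, 4.49 and 7.42 CPM in untreated cells without serine. In complete medium it was at 6.25, 3.63, 3.39 and 2.02 CPM in LPS-treated cells, against 10.7, 5.22, 4.78 and 3.90 CPM in untreated cells. Pmaip1 was lower with LPS in 4 of 4 pairs in both conditions, while the spread between replicate numbers was wider than the shift. The log2 fold change was -0.49 without serine (SE 0.44, edgeR adjusted p = 0.352) and -0.67 with serine (SE 0.45, edgeR adjusted p = 0.223). With the replicate number as a block it passed in both, at -0.48 (SE 0.20, edgeR adjusted p = 0.0484) and -0.67 (SE 0.21, edgeR adjusted p = 0.0126). The call without serine turned on replicate 4 of the untreated group: that pair gave -1.45 and the other 3 gave -0.20 to -0.39. Without that library the blocked value of Pmaip1 was -0.31 and did not pass (edgeR adjusted p = 0.0814), nor did it without every replicate 1 (-0.69, edgeR adjusted p = 0.0591). With the block, 5 of the 10 rose and 3 fell without serine, beside 29.4% and 31.6% of all genes, and 4 rose and 3 fell with serine, beside 29.7% and 30.7%.

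**Figure D3:**
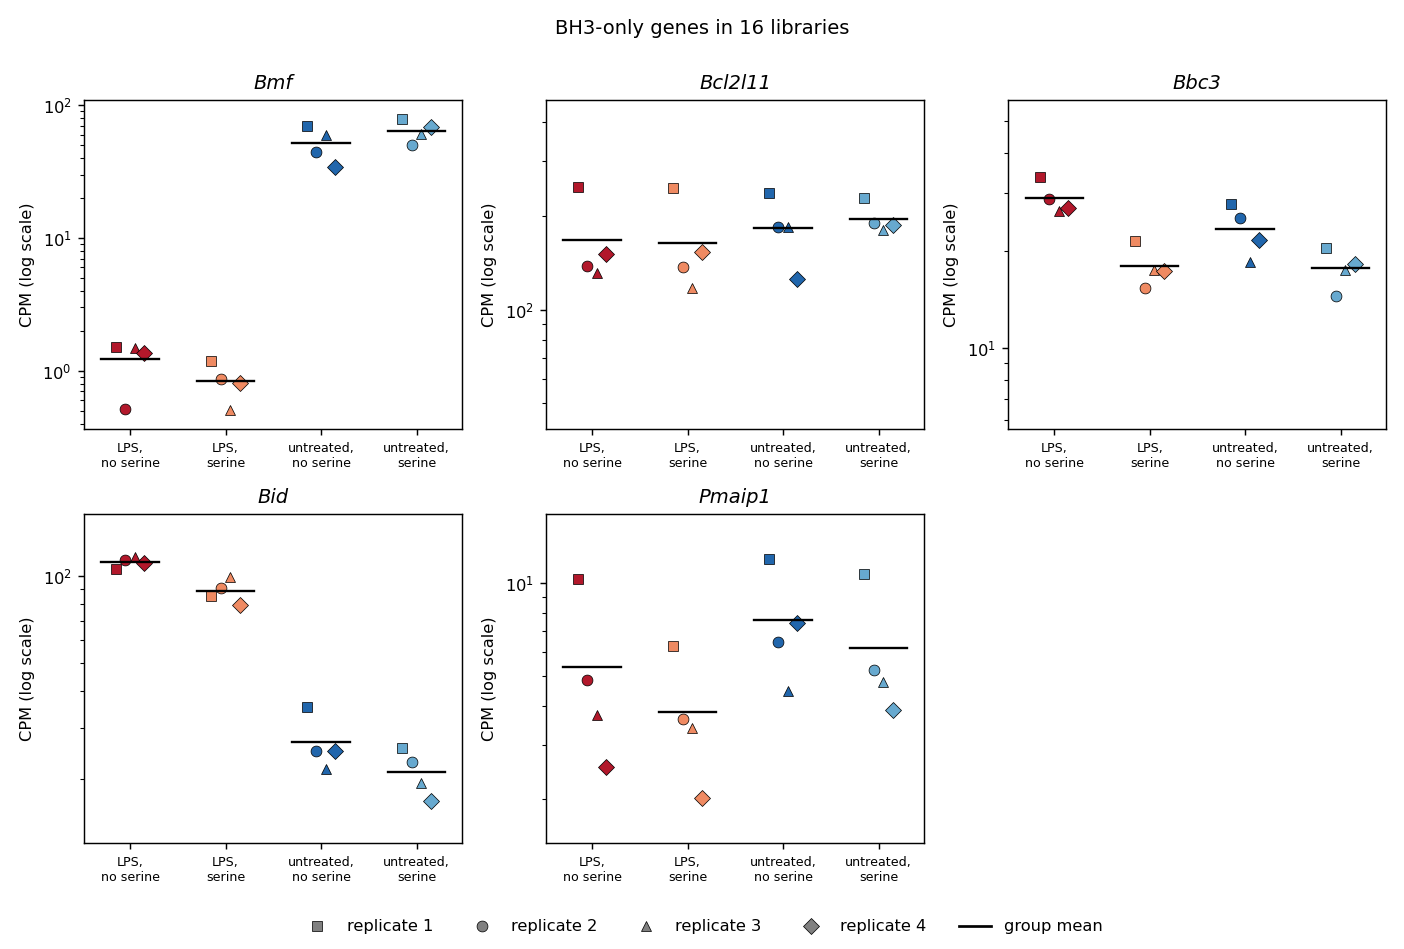
CPM of the 5 BH3-only genes in each of the 16 libraries on log axes, by group, with a symbol for each replicate number and a line at the group mean. Bmf lies between 0.508 and 1.52 CPM in the 8 LPS libraries and between 34.4 and 78.0 CPM in the 8 untreated ones, and replicate 1 is the highest of its group for Bmf, Bcl2l11, Bbc3 and Pmaip1.

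Among the anti-apoptotic genes, Mcl1 was at 1864, 2042, 2148 and 2323 CPM in LPS-treated cells without serine, against 1247, 1099.8, 991 and 1293 CPM in untreated cells without serine. Cells with serine had 1513, 1635, 1826 and 1893 CPM in LPS-treated cells, against 1075, 976, 932 and 987 CPM in untreated cells. The LPS libraries lay above the untreated ones without overlap in both conditions. Mcl1 rose by a log2 fold change of 0.86 without serine (SE 0.12, edgeR adjusted p = 1.28e-05) and 0.79 with serine (SE 0.12, edgeR adjusted p = 2.73e-05). This rise depended on scaling. With libraries scaled by their totals, Mcl1 changed by 0.29 without serine (edgeR adjusted p = 0.0242) and by 0.17 with serine (edgeR adjusted p = 0.17). That scaling shifts the median log2 fold change of all genes by -0.57 without serine and -0.62 with serine, to -0.69 and -0.64.

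Bcl2l1, whose main product is the anti-apoptotic BCL-XL, was at 44.4, 69.9, 79.2 and 74.8 CPM in LPS-treated cells without serine, against 35.4, 44.4, 38.0 and 46.2 CPM in untreated cells without serine. With serine it was at 39.4, 66.0, 63.7 and 63.7 CPM in LPS-treated cells, against 33.5, 35.4, 37.1 and 32.6 CPM in untreated cells. Replicate 1 was the lowest LPS library in both conditions, and without serine it overlapped the untreated group. Bcl2l1 rose by a log2 fold change of 0.72 without serine (SE 0.18, edgeR adjusted p = 0.00306) and 0.75 with serine (SE 0.18, edgeR adjusted p = 0.00218). With libraries scaled by their totals it was at 0.14 and 0.13 and did not pass (edgeR adjusted p = 0.461 and 0.513).

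Bcl2 was at 1.67, 1.21, 1.5 and 0.974 CPM in LPS-treated cells without serine, against 4.46, 4.45, 3.08 and 0.675 CPM in untreated cells without serine. In complete medium it was at 1.04, 1.21, 1.36 and 1.41 CPM in LPS-treated cells, against 3.33, 2.97, 2.51 and 2.09 CPM in untreated cells. The groups did not overlap with serine, while without serine replicate 4 of the untreated cells, with 2 counts, lay below all 4 LPS libraries. Bcl2 fell by 1.35 on the log2 scale without serine (SE 0.36, edgeR adjusted p = 0.00446) and by 1.13 with serine (SE 0.37, edgeR adjusted p = 0.0157). The fall with serine did not pass when every replicate 1 was left out (-0.96, edgeR adjusted p = 0.102).

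The effectors differed in their response to LPS. Bak1, whose protein resides in the outer mitochondrial membrane, was at 109.8, 135, 130.1 and 141 CPM in LPS-treated cells without serine, against 62.3, 69.8, 62.2 and 62.4 CPM in untreated cells without serine. Cells with serine had 117, 149, 143 and 138 CPM in LPS-treated cells, against 66.1, 75.6, 64.4 and 56.2 CPM in untreated cells. The groups did not overlap, and Bak1 rose by a log2 fold change of 1.01 without serine (SE 0.12, edgeR adjusted p = 1.90e-06) and 1.06 with serine (SE 0.12, edgeR adjusted p = 9.14e-07). Scaled by library totals the rise was 0.43 and 0.44, and it passed the test in both conditions.

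Bax, whose protein moves from the cytosol to mitochondria, was at 92.9, 95.4, 82.4 and 73.9 CPM in LPS-treated cells without serine, against 93.4, 80.2, 73.0 and 230.0 CPM in untreated cells without serine. In complete medium it was at 100.6, 82.4, 82.3 and 79.2 CPM in LPS-treated cells, against 85.8, 84.0, 74.7 and 83.9 CPM in untreated cells. The groups overlapped in both conditions, and the value of 230.0 CPM came from the library with the lowest total, in which short genes were high. Bax is short, at 869 bases, and only 2.43% of the genes tested are shorter. The part of length in its value was not tested. The log2 fold change was -0.45 without serine (SE 0.27, edgeR adjusted p = 0.163) and 0.07 with serine (SE 0.27, edgeR adjusted p = 0.849). Without that library the first became 0.07. With libraries scaled by their totals, Bax was lower with LPS in both conditions, at -0.96 (edgeR adjusted p = 0.0017) and -0.55 (edgeR adjusted p = 0.0451). Bax shares exon sequence with Gm45808, annotated on the same strand. Bak1 and Bcl2 each overlap a gene of the opposite strand, Ggnbp1 at 0.660 CPM on average and D630008O14Rik with no count. Of the summed per-length level of Bax and Bak1, Bax made up 79.8% ± 3.26 in LPS-treated cells without serine and 78.9% ± 3.27 in LPS-treated cells with serine, against 90.1% ± 3.89 and 88.2% ± 1.34 in the untreated groups (SD, n = 4 each).

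**Figure D4:**
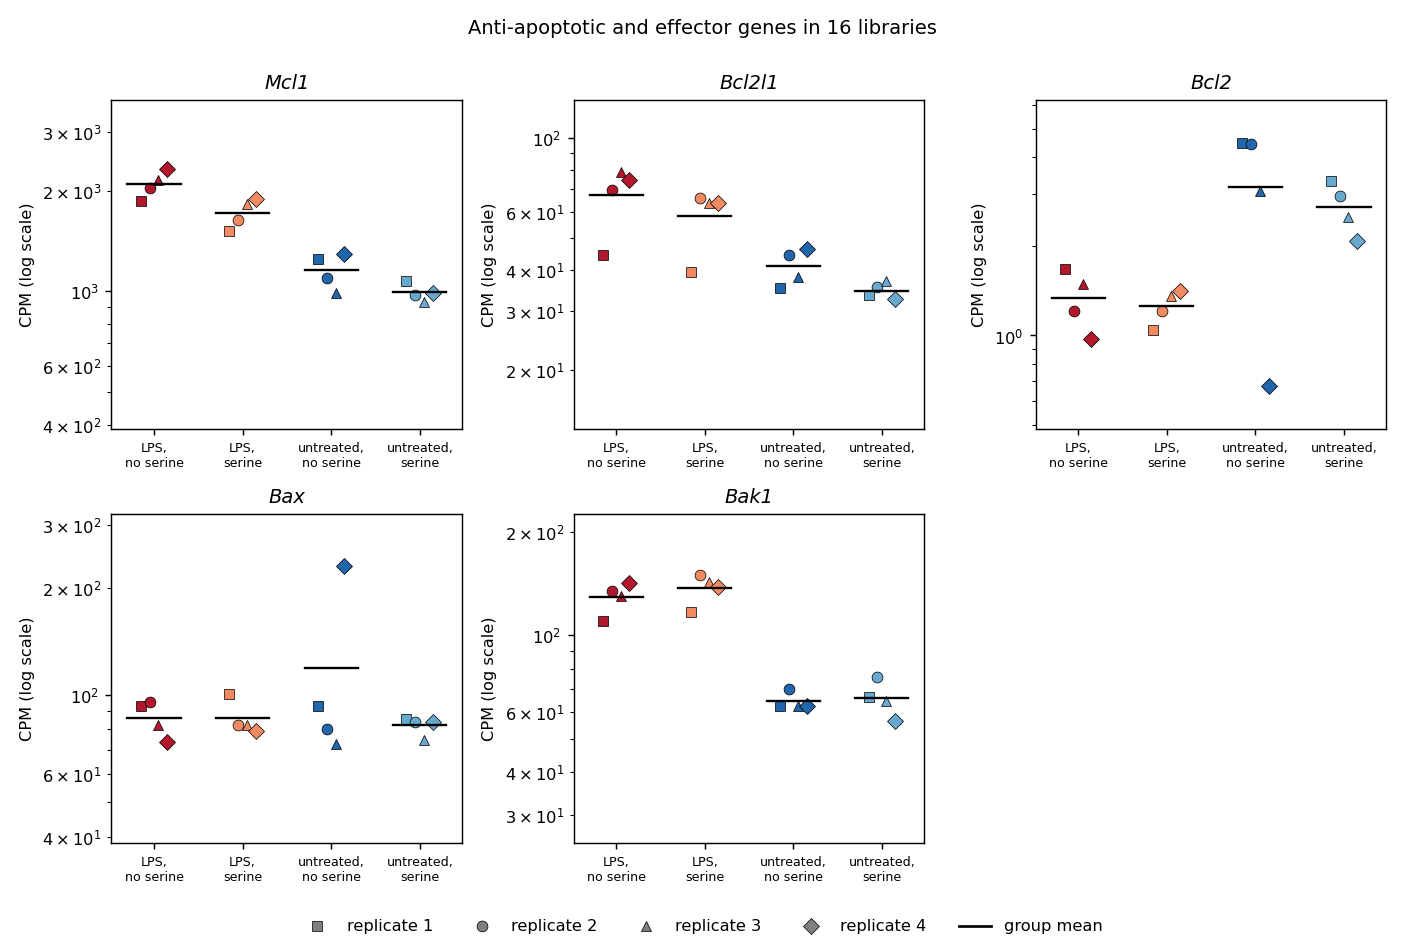
CPM of the 3 anti-apoptotic and 2 effector genes in each of the 16 libraries on log axes, by group, with a symbol for each replicate number and a line at the group mean. The LPS libraries lie above the untreated ones for Mcl1 and Bak1, and replicate 4 of the untreated cells without serine stands apart for Bax (230.0 CPM) and Bcl2 (0.675 CPM).

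In LPS-treated cells the largest serine difference that was seen in every pair belonged to Bbc3, which was higher without serine by 0.65, 0.89, 0.60 and 0.64 on the log2 scale in pairs 1 to 4. Its 4 libraries without serine lay between 26.5 and 33.8 CPM and its 4 libraries with serine between 15.4 and 21.4 CPM, with no overlap. Bbc3 had a log2 fold change of 0.70 (SE 0.16), which did not pass in edgeR without the block (adjusted p = 0.117) and passed once the block was fitted (0.70, SE 0.12, edgeR adjusted p = 0.0147). In the authors' deposited table it stands at 0.69 with an adjusted p of 0.00439 and is marked as higher. In DESeq2 the value was 0.70 (adjusted p = 0.00479). Leaving out replicate 4 of the untreated cells without serine, a library outside this comparison that enters the shared estimate of the spread, brought Bbc3 past the threshold in edgeR without the block (adjusted p = 0.0284). With every replicate 1 left out Bbc3 was at 0.71 and did not pass, with the block (edgeR adjusted p = 0.214) or without it (edgeR adjusted p = 0.239).

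Without the block, 0 of the 10 passed in LPS-treated cells in edgeR, beside 0.0545% of all genes higher and 0.00909% lower. At an unadjusted p under 0.05 in edgeR there were 3 of the 10, namely Bbc3, Bid and Mcl1, and 676 of the 11004 genes tested, counting both directions. With the block 1 of the 10 passed, beside 0.663% of all genes higher and 0.227% lower, and with DESeq2 1 of 8 with an adjusted p passed, beside 1.38% higher and 0.270% lower. Without replicate 4 of untreated cells lacking serine, 1 of the 10 passed without the block, beside 1.01% higher and 0.396% lower. With the block 2 of the 10 then passed, beside 4.98% and 3.32%. Bid was higher without serine in 4 of 4 pairs with no overlap between the groups, at a log2 fold change of 0.33 (SE 0.15, edgeR adjusted p = 0.742). Mcl1 was also higher in 4 of 4 pairs, by 0.23 to 0.32 (fitted 0.29, SE 0.12, edgeR adjusted p = 0.64). Neither passed the test. Pmaip1 and Bcl2l1 were higher in 4 of 4 pairs as well, with fitted values of 0.49 (SE 0.47) and 0.21 (SE 0.18). The share of all genes that were higher in every pair, or without overlap, was not computed. These patterns therefore cannot be read as a trait of the 10. Bmf had the second-largest fitted value, 0.51 (SE 0.45), with pairs from -0.52 to 1.17, at 3 to 10 counts per library. The other 4 genes did not move one way in every pair. Bcl2 was at 0.12 (SE 0.42), Bcl2l11 at 0.03 (SE 0.24), Bax at -0.00032 (SE 0.27) and Bak1 at -0.09 (SE 0.12). The median of the 10 was 0.25, against 0.0032 over all genes tested.

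**Figure D5:**
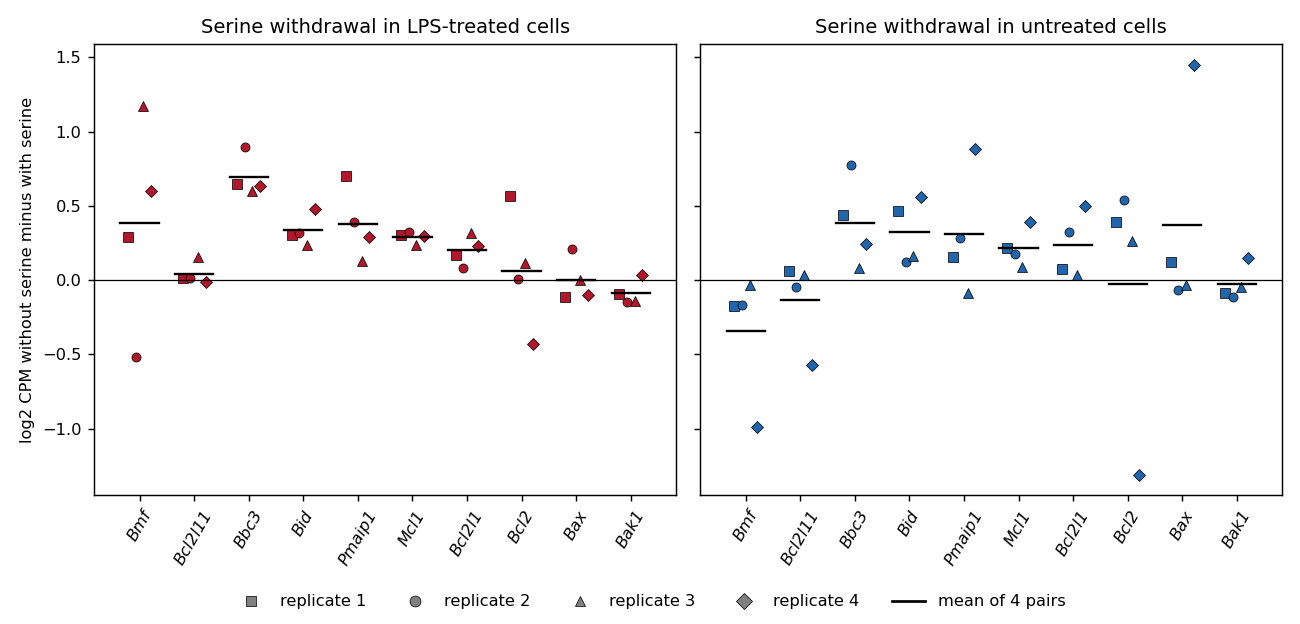
Difference of log2 CPM, without serine minus with serine, for each same-numbered pair of libraries, in LPS-treated cells (left) and untreated cells (right), with a line at the mean of 4 pairs. All 4 pairs lie above 0 for Bbc3, Bid, Mcl1 and Bcl2l1 in both panels, and pair 4 of the untreated cells stands apart for Bax at 1.45 and Bcl2 at -1.31.

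In untreated cells 0 of the 10 passed in edgeR, with the block, or in DESeq2, beside 0.00% of all genes in either direction without the block and 0.0818% higher and 0.00% lower with it. In DESeq2 0.110% of all genes were higher and 0.00917% lower. At an unadjusted p under 0.05 in edgeR there were 2 of the 10, Bbc3 and Bid, and 548 of the 11004 genes tested, counting both directions. Bbc3 was at 27.8, 25.1, 18.5 and 21.6 CPM without serine, against 20.4, 14.5, 17.5 and 18.2 CPM with serine, so the groups overlapped while every pair was higher without serine. Its log2 fold change was 0.40 (SE 0.15, edgeR adjusted p = 0.816). Bid was at 0.34 (SE 0.15), Bcl2l1 at 0.24 (SE 0.18) and Mcl1 at 0.22 (SE 0.12), each higher in 4 of 4 pairs. Here too the share of all genes higher in every pair was not computed. Bmf was lower without serine in 4 of 4 pairs, at -0.30 (SE 0.20), and pair 4 alone gave -0.99. Bax had the largest value, 0.52 (SE 0.27), which rests on replicate 4: the other 3 pairs lay between -0.07 and 0.12. The remaining values were 0.33 for Bcl2 (SE 0.31), 0.30 for Pmaip1 (SE 0.42), -0.10 for Bcl2l11 (SE 0.24) and -0.03 for Bak1 (SE 0.12). The median of the 10 was 0.27, against 0.01 over all genes.

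Whether withdrawal acted differently with and without LPS was tested as a difference of the withdrawals, which is the same contrast as the difference of the LPS effects. In edgeR 0 of the 10 passed, with or without the block, beside 0.00% of all genes in either direction, and in DESeq2 0 of the 10 passed, beside 0.00917% higher and 0.00% lower. At an unadjusted p under 0.05 in edgeR there were 0 of the 10 and 253 of the 11004 genes tested, counting both directions. Bmf had the largest difference, 0.81 (SE 0.50, edgeR adjusted p = 0.95), that is, a smaller fall with LPS in cells without serine. For Bbc3 it was 0.29 (SE 0.22) and for Bax -0.52 (SE 0.38). The differences of Bid, Mcl1 and Bak1 were smaller than their own errors. For Bid it was -0.01 (SE 0.21), for Mcl1 0.06 (SE 0.17) and for Bak1 -0.06 (SE 0.17). The difference of the withdrawals had a median of 0.03 over the 10 and of -0.01 over all genes.

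Some of the spread between libraries followed the replicate number. In all 4 groups replicate 1 had the highest level of Bmf, Bcl2l11, Bbc3 and Pmaip1. The share of all tested genes with this pattern was not computed, so it cannot be read as a trait of these genes. Pmaip1 in replicate 1 was at 10.4 CPM in LPS-treated cells without serine, against 2.53 to 4.85 CPM in the other 3, and at 6.25 CPM in LPS-treated cells with serine, against 2.02 to 3.63 CPM. In untreated cells replicate 1 was at 12 CPM without serine, against 4.49 to 7.42 CPM, and at 10.7 CPM with serine, against 3.90 to 5.22 CPM. Bcl2l1 went the other way, with replicate 1 the lowest in 3 of 4 groups. Bid was highest in replicate 1 in 2 groups and lowest in 1, and Bcl2 was highest in 3 and lowest in 1. Replicate 1 is also the only number without Xist and with Y-linked counts, and the 2 cannot be told apart.

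The rest of the pathway was followed through 8 lists of 63 genes outside the 10, chosen for their known roles. Their counts stand beside the same shares of all genes as the 10: 27.1% higher and 29.7% lower without serine, and 27.6% and 28.2% with serine. The anti-apoptotic guardians outside the 10 rose with LPS in 4 of 4 tested genes in both conditions. Bcl2a1d, Bcl2a1a and Bcl2a1b, genes of the NF-κB target A1, had log2 fold changes of 6.52, 6.34 and 3.29 without serine and 7.67, 7.12 and 4.10 with serine. These 3 are near-identical copies, so the split of reads among them is uncertain. Their counts summed over a group were 1142 to 6574 without serine and 1261 to 7274 with serine in LPS-treated cells, against 20 to 797 and 13 to 623 in untreated cells. Bcl2l2, which encodes BCL-W, rose by 0.65 (SE 0.16) without serine and 0.81 (SE 0.16) with serine. Among BH3-only genes outside the 10, 2 of 3 tested genes fell without serine and 1 of 3 with serine, led by Bnip3l, a mitophagy receptor, at -1.14 (SE 0.13) and -0.90 (SE 0.13). Of 2 divergent relatives tested, Bcl2l12 fell with serine (-1.46, SE 0.35), and neither passed without serine.

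Downstream of the mitochondria, LPS raised 4 of 10 apoptosome and caspase genes in both conditions and lowered 4 without serine and 5 with serine. Cycs, the gene of cytochrome c, rose by 1.41 (SE 0.17) without serine and 1.90 (SE 0.17) with serine. Casp9, the initiator caspase of the apoptosome, fell by 1.2 (SE 0.19) without serine and by 1.44 (SE 0.19) with serine on the log2 scale. Of 8 inhibitor of apoptosis genes, 3 rose in both conditions, and 1 fell without serine and 0 with serine. Birc3 rose by 2.17 in both conditions (SE 0.23 each) and Birc2 by 1.88 (SE 0.20) and 2.02 (SE 0.20), while Xiap had 0.86 (SE 0.20) without serine and 0.52 (SE 0.20) with serine. The smaller value of Xiap passed by little and was lost when any 1 of 5 libraries was left out, with values from 0.45 to 0.60 over the 16 libraries left out in turn. With libraries scaled by their totals it was -0.10.

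The extrinsic arm, which meets the mitochondrial one at Bid, rose in 5 of 9 genes and fell in 0 in both conditions. Fas, a death receptor, rose by 4.04 (SE 0.27) without serine and 4.25 (SE 0.27) with serine. Cflar, the gene of the caspase-8 inhibitor c-FLIP, rose by 4.07 (SE 0.24) and 3.92 (SE 0.23), and Traf2, an adaptor of TNF receptors, by 2.18 (SE 0.11) and 2.17 (SE 0.11). Among 9 partners of the family, 3 rose and 2 fell without serine and 2 rose and 2 fell with serine. Dynll2, the dynein light chain known to anchor BMF, fell by 0.84 (SE 0.12) and by 0.85 (SE 0.12) on the log2 scale. Dynll1, which is known to anchor BIM, fell by 1.02 (SE 0.20) and by 0.62 (SE 0.20), the second of which did not pass without replicate 4 of the LPS group (edgeR adjusted p = 0.0501). Vdac3, a mitochondrial porin, rose by 0.60 (SE 0.13) and 0.79 (SE 0.13), and had 0.04 and 0.17 and did not pass when libraries were scaled by their totals.

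Of 11 tested genes of transcription factors known to regulate the family, 5 rose and 3 fell with LPS in both conditions. Foxo3, whose protein is known to activate Bcl2l11 and Bbc3, fell by 2.05 (SE 0.11) without serine and by 2.52 (SE 0.11) with serine on the log2 scale. Nfkb1 rose by 3.40 (SE 0.12) and 3.36 (SE 0.12), and Stat3 by 2.12 (SE 0.14) and 1.92 (SE 0.14). In the withdrawals 0 genes of the 8 lists passed in edgeR without the block, and only members of this list passed with it. Atf4, the central factor of the amino acid response, averaged 513 ± 61.8 CPM without serine and 337 ± 80.8 CPM with serine in LPS-treated cells, and 295 ± 56.4 CPM and 151 ± 32.9 CPM in untreated cells (SD, n = 4 each). With the block it was higher without serine by a log2 fold change of 0.63 (SE 0.13, edgeR adjusted p = 0.0428) in LPS-treated cells and 0.97 (SE 0.13, edgeR adjusted p = 0.0097) in untreated cells. Ddit3, the gene of CHOP, was higher without serine in LPS-treated cells by 1.33 with the block (SE 0.19, edgeR adjusted p = 0.00679). Neither passed in edgeR without the block, at an adjusted p of 0.353 and 0.207 for Atf4 and 0.15 for Ddit3. DESeq2 called Atf4 in untreated cells (0.98, DESeq2 adjusted p = 0.00191) and Ddit3 in LPS-treated cells (1.35, DESeq2 adjusted p = 0.00479). In untreated cells Ddit3 averaged 71.7 ± 23.6 CPM without serine and 38.9 ± 6.79 CPM with serine. It did not pass there in edgeR, with or without the block.

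The genes whose pattern lay nearest to that of Bid and of Bmf were found by the root-mean-square difference of log2 CPM over the 16 libraries, each gene centred on its own mean. For Bid these were Rbpj, Socs7, Cd44, Traf2 and Rnf19b, at differences of 0.19 to 0.21. Their log2 fold changes with LPS lay between 1.92 and 2.34 without serine and between 1.77 and 2.26 with serine. For Bmf they were Arhgap19, Zfp395, Cnr2, Sesn1 and 6430548M08Rik, at differences of 0.41 to 0.60. The 2 ranges are not comparable, since Bmf had 3 to 10 counts in each LPS library. With LPS these 5 had log2 fold changes from -6.51 to -4.61 without serine and from -8.30 to -4.82 with serine.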

How the data were processed

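The deposited counts are whole reads per Ensembl gene for 43430 genes, and the submitters' processing notes name Trimmomatic 0.33, STAR, SAMtools, HTSeq, edgeR and the mm10 build. The kit named in the labels' protocols does not mark strand. The authors also deposited FPKM, which equal counts divided by gene length and library total, and tables with log2 fold changes and adjusted p-values, from which only the sentences naming them draw. A further 24 columns of the count table could not be tied to a labelled sample and were not used.

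Counts were tested with edgeR 4.0.16 (R 4.3.3): filterByExpr left 11004 genes, libraries were scaled by TMM, and 1 mean per group was fitted to all 16 libraries by robust quasi-likelihood. Tests were two-sided with Benjamini-Hochberg adjustment over all genes tested, and the threshold was 0.05. The script was tested on simulated data. CPM use TMM-adjusted totals, and log2 levels a prior count of 2. Lengths are the authors'. Depth was 6573849 to 7892215 counts in LPS-treated cells without serine, 6240112 to 8092528 in LPS-treated cells with serine, 2871477 to 10043362 in untreated cells without serine and 5760734 to 7845261 in untreated cells with serine. No 2 libraries were copies: chi-square per degree of freedom was at least 2.04 in all 120 pairs.

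Replicate numbers come from the sample titles. After subtracting group means, libraries with the same number correlated over genes at 0.125 to 0.66 in the 4 comparisons of 2 groups. Every such pair was above the criterion of 0.1. Libraries with different numbers also passed it, at up to 0.122 in LPS with serine and 0.141 in the withdrawal with LPS. The criterion alone thus does not set same-numbered pairs apart. Within each comparison, all same-number values lay above all others. The model without the number is the one reported, because no label says that the numbers pair the samples. The one with it as a block is given where it changes a call. The block lowered the coefficient of variation shared by all genes from 20.9% to 16.7%. Other alternatives were RLE and total-count scaling, no filter, DESeq2 1.42.0, the compared groups alone, and leaving out single libraries or every replicate 1.

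The 10 genes, the lists and the tests were chosen with earlier results of these data known. All 10 were named in each comparison. Of each list the 3 largest changes past the threshold in LPS with serine were named, and up to 3 past it in each withdrawal or their difference, with or without the block. Of the genes this rule names, 1 is not reported here. The 5 nearest patterns were sought for the members with the largest rise and fall.
Upstream sequences are RefSeq promoter windows, found for 8 of the 10 genes.
The comparison of the 2751 longest and 2751 shortest genes by deposited length was added after seeing the data.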

Additional observations from a re-analysis of the deposited data

Results flagged for a closer look

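The 10 genes gave 40 sets of 4 replicates, and in 6 of them the highest or lowest library stood far from the other 3, with a gap to its nearest neighbour, divided by the range, above Dixon's critical value. Chance flags about 1 in 20 such sets. Bax gave 3 of the 6. In untreated cells without serine its replicate 4 was highest at 230.0 CPM, against 73.0 to 93.4 CPM in the rest, and this library had the lowest total, 2871477 counts. In LPS-treated cells with serine its replicate 1 was highest at 100.6 CPM, against 79.2 to 82.4 CPM. In untreated cells with serine its replicate 3 was lowest at 74.7 CPM, against 83.9 to 85.8 CPM. Bcl2l1 was lowest in replicate 1 of LPS-treated cells with serine, at 39.4 CPM against 63.7 to 66.0 CPM. Bmf was lowest in replicate 2 of LPS-treated cells without serine, at 0.520 CPM against 1.36 to 1.52 CPM, which rests on 3 counts. Bak1 was highest in replicate 2 of untreated cells without serine, at 69.8 CPM against 62.2 to 62.4 CPM, a narrow range throughout.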

How the results depend on the processing

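The calls of Bmf, Bid and Bak1 with LPS held in both serine conditions under every alternative that gave a value. Scaling by library totals moved the median of all genes by -0.57 without serine and -0.62 with serine and turned the split of LPS calls to 15.3% higher and 59.7% lower without serine and 15.1% and 58.2% with serine, with 3 of the 10 members higher and 5 lower without serine and 2 higher and 6 lower with serine. Bbc3 then had -0.26 without serine and -0.59 with serine, Bax -0.55 with serine and Xiap -0.10 with serine. The values of Bbc3 and Bax with serine passed (edgeR adjusted p = 0.00565 and 0.0451). Bcl2 could not be fitted with the 2 groups alone in LPS without serine, since it did not pass the filter, nor could Bmf and Bcl2 in the withdrawal with LPS. In that withdrawal DESeq2 gave Bcl2 and Pmaip1 no adjusted p. Bmf after LPS, Bcl2 and Pmaip1 had few counts. Whether depth or another cause lies behind the changes here and below was not tested.

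The block for the replicate number mattered for the withdrawals. In LPS-treated cells 7 genes were called without the block and 98 with it, 922 with it and without replicate 4 of untreated cells lacking serine, 110 with DESeq2, 35 with the 2 groups alone, 4 with no filter, 0 with total-count scaling and 0 without every replicate 1. The members called were 0 without the block, 1 with it, 2 with it and without that library (Bbc3, and Mcl1 at an edgeR adjusted p of 0.0477) and 1 with DESeq2, and 0 with the block and every replicate 1 left out, where 7 genes were called. In untreated cells 0 genes were called without the block, 9 with it, 79 with it and without that library, 13 with DESeq2, 2 with no filter and 2 with the block and every replicate 1 left out. The difference of the withdrawals gave 0 genes, 8 with the block and without that library, and 1 with DESeq2. The block changed no other member call than those of Bbc3 and Pmaip1.

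Leaving out single libraries gave 0 to 156 genes and 0 to 1 members in the withdrawal with LPS, the highest without that same library. Xiap with serine was lost without replicate 1 or 3 of the LPS group or replicate 2, 3 or 4 of the untreated group. Bcl2l12 without serine, which had not passed, passed without replicate 2 of the untreated group or replicate 1 of the untreated cells with serine.

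Apart from Xiap under total-count scaling, which had passed with serine, the sign changed in values that had not passed. With LPS and serine, leaving out every replicate 1 gave Bbc3 -0.031 without and -0.030 with the block and Bax -0.022 and -0.012. With LPS and no serine, Bax was 0.10 with the block and without replicate 4 of untreated cells lacking serine. That setting gave 0.011 for Bcl2l11 and -0.032 for Bax in the withdrawal of untreated cells. In the withdrawal with LPS, Bcl2 was -0.11 without every replicate 1 and -0.12 with the block too, and Bax was 0.0026 under RLE and under DESeq2, 0.0064 with the block, and 0.038 and, with the block, 0.045 without every replicate 1. In the difference, total-count scaling gave Bcl2l1 0.016 and Bid 0.031. Bid was 0.00045 with the block, 0.0012 with it and without replicate 4, and 0.074 and, with the block, 0.078 without every replicate 1. Bax was 0.032 with the block and without replicate 4, and Pmaip1 -0.062 and, with the block, -0.041 without every replicate 1. The block joined with leaving out every replicate 1, and all alternatives for genes outside the 10, were chosen after seeing the data.

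Over single libraries left out, LPS with serine ranged from -0.013 to 0.11 for Bax and from -0.079 to 0.10 for Bbc3, and LPS without serine from -0.63 to 0.066 for Bax and from -0.39 to 0.021 for Bcl2l11. The withdrawal with LPS ranged from -0.052 to 0.084 for Bax, -0.027 to 0.23 for Bcl2, -0.23 to 0.30 for Bcl2l11 and -0.069 to 0.84 for Pmaip1, and in untreated cells from -0.10 to 0.044 for Bak1, -0.25 to 0.042 for Bcl2l11 and -0.059 to 0.72 for Pmaip1. The difference ranged from -0.13 to 0.016 for Bak1, -0.18 to 0.13 for Bcl2l1, -0.12 to 0.40 for Bcl2l11, -0.11 to 0.17 for Bid, -0.0017 to 0.12 for Mcl1 and -0.36 to 0.55 for Pmaip1.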
